A study of Neurospora crassa with 24 samples.

Results

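The genes described here are 180 of the 9730 *Neurospora crassa* loci measured, those whose transcripts were higher in ample glucose than in scarce or no glucose in the wild type (WT). Members were selected on WT values alone: the mean of log2(FPKM + 1) over the 2 WT libraries at 0.5% glucose and that at 2% glucose each had to lie at least 1 above both the mean at 0.05% glucose and the mean without a carbon source, and the mean level at 2% had to exceed 20 FPKM (fragments per kilobase of transcript, scaled to the library's total). In total 297 loci met the differences and 180 of them also passed the level. Because the WT libraries chose the members, every WT value below, and every difference between a mutant and WT, is a description without a test. Tests are given only inside the mutants and between the mutants, whose libraries the rule did not use.

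The study compared 3 strains of this filamentous fungus in 4 media with 2 libraries per group, 24 libraries in all: WT (OR74A), Δ*rco-3* and Δ*col-26*. *rco-3* encodes a membrane protein related to sugar transporters that acts in glucose sensing, and *col-26* encodes a zinc cluster transcription factor needed for starch use and normal glucose regulation. All cultures shared a first growth on 2% sucrose (16 h, 28 °C, constant light), after which washed mycelium spent 1 h with no carbon source, 0.05%, 0.5% or 2% glucose. Each mutant was a single stock-centre deletion strain, both of them *mat a*, so strain background and deletion cannot be told apart.

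In fungi, glucose supports growth through sensing at the membrane and transcription factors that adjust transport, metabolism and the protein synthesis machinery. Ribosome assembly, nucleotide and amino acid synthesis are costly, and their genes are commonly expressed together when carbon is plentiful. *N. crassa* is a long-standing model for glucose repression, and it carries sugar uptake systems of high and low affinity that respond in opposite directions to glucose.

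Duplicates were close: the median absolute log2 difference between the 2 libraries of a group lay between 0.05 and 0.07 over the 7981 genes tested. Total counts are unknown from FPKM. A rough depth was read from the steps between low values of 51 genes. With it, the variance between duplicates was 1.10 to 2.83 times counting noise over the genes tested and 0.785 to 2.78 times over members. The p-values below measure only the spread between these duplicates, which lay near counting noise. They say little about variation between independently grown cultures. *rco-3* (NCU02582) was at 0 FPKM in all Δ*rco-3* groups, against 6.25 to 20.8 in WT. *col-26* (NCU07788) was lower in Δ*col-26* than in WT in each medium but was not absent, with group means of 5.02 to 10.5 FPKM against 17.3 to 39.4, and the files do not say which part of the gene those fragments came from. The mycelial markers *hex-1*, *act* and *tef-1* were at 556 FPKM or more in every library. Conidial markers (*con-6*, *con-8*, *con-10*, *con-13*, *eas* and *fl*; 6 of 6 measured) summed to 4633 to 5054 FPKM in the mutant libraries without carbon and 371 to 912 in the mutant libraries with glucose, against 357 to 366 and 9.31 to 33.9 in WT. In the WT glucose libraries *con-13* was at 0. The marker *fl* did not follow the sum in Δ*col-26*. Its group means there were 3.04 FPKM without carbon, 2.46 at 0.5% and 2.08 at 2%, against 4.7, 4.225 and 4.915 in WT. At 0.05% glucose *fl* was higher in Δ*col-26*, 2.15 against 0.555 FPKM, and in Δ*rco-3* it was above WT in each medium. The markers moved with strain and medium, and their part in the results below was not tested.

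Names were limited. The reference (NC12 assembly) gives a symbol for 33 members and the study's annotation gives product text for 24, so 131 of the 180 are known here by locus tag alone. By their coordinates 45 members (25%) overlapped another locus, as did 26.8% of the genes tested; fragments of such pairs may have been split by the authors' counting. Those named below are NCU00177, NCU00399, NCU00419, NCU00693, NCU00919, NCU02098, NCU03764, NCU03960, NCU04195, NCU05970, NCU12021, NCU12022, *leu-2*, *arg-3*, *acw-12*, *mig-2* and *gh47-4*.

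In WT the median member stood at 6.22 FPKM without carbon, 13 at 0.05%, 42.1 at 0.5% and 49.7 at 2% glucose. Together the members took 0.556% to 0.573% of all FPKM in the WT libraries without carbon and 3.24% to 3.28% at 2%. The step the rule did not fix, from no carbon to 0.05%, divided them: 98 members were already at least 1 higher on the log2 scale at 0.05%, 78 moved by less than 1 and 4 were at least 1 lower. Over all genes tested 13.4% were at least 1 higher and 30.9% at least 1 lower. From 0.5% to 2% glucose 179 of 180 moved by less than 1, with a median difference of 0.29. This was so for nearly all genes tested, of which 0.0752% were at least 1 higher and 0.388% at least 1 lower. At the edge of the rule, NCU08951, NCU00693 and NCU04195 were inside with margins of 1.009, 1.010 and 1.012, while NCU09707, NCU05305 and NCU04047 were outside with 0.9993, 0.9987 and 0.9976. On the level criterion NCU02658 (20.1 FPKM) was inside and NCU03794 (19.98 FPKM) outside.

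In the mutants the members' median changed little above 0.05% glucose. Median member levels in Δ*rco-3* were 6.94, 22.2, 26.2 and 25.5 FPKM with rising glucose, and in Δ*col-26* 4.36, 21.8, 24.7 and 23.4 FPKM. At 0.05% glucose both mutants therefore lay above the WT median of 13, and at 2% both lay below the WT median of 49.7. No member met the WT rule inside Δ*rco-3*, and 2 did so inside Δ*col-26*, NCU03764 and NCU06783. NCU03764 was low there, with libraries at 0 and 0.82 FPKM at 0.05%, 5.11 and 5.24 at 0.5%, and 2.4 and 3.78 at 2%. Over all 7981 genes tested the counts were also 0 and 2 (0% and 0.0251%). The lack of this pattern in the mutants was thus not particular to the members. By contrast 127 members for Δ*rco-3* *vs.* 135 for Δ*col-26* were at least 1 higher in all 3 glucose media than without carbon, which held for 11.1% and 14.6% of the genes tested.

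**Figure D1:**
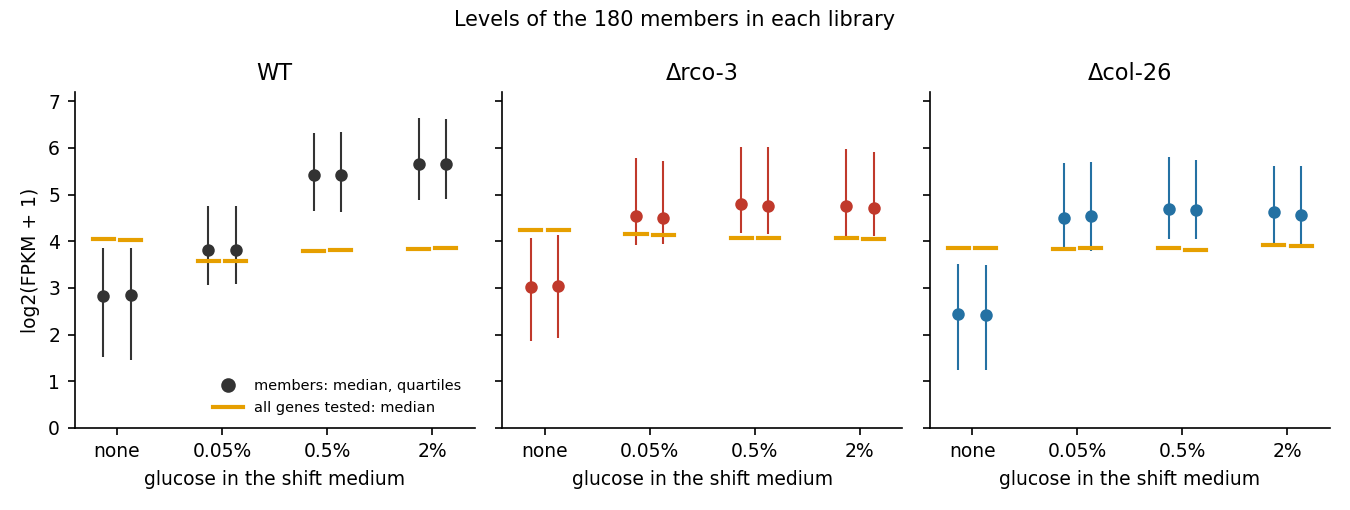
Median log2(FPKM + 1) of the 180 members in each of the 24 libraries (points, with bars from the lower to the upper quartile over members) and median of the 7981 genes tested (orange bars), by strain and glucose. WT medians reached 5.65 at 2%, whereas both mutants were at 4.49 to 4.55 at 0.05% and at 4.57 to 4.79 in the richer media.

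The first step was tested in each mutant with limma, with Benjamini-Hochberg adjustment over the 7981 genes. A gene was called when its adjusted p was below 0.001, its log2 difference at least 1 and its mean above 20 FPKM in at least 1 group compared. At 0.05% glucose *vs.* no carbon, 78 of 180 members rose in Δ*rco-3* and 0 fell, where 8.09% of all genes tested were called higher and 9.84% lower. In Δ*col-26* 84 rose and 2 fell, beside 10.6% and 11.1% of all genes. The FPKM criterion limited these counts, since only 106 and 105 members reached 20 FPKM in either medium. Without it 130 and 139 members rose. By size of difference alone, 12.1% and 16.2% of all genes tested were at least 1 higher. The median member difference was 1.80 for Δ*rco-3* *vs.* 2.23 for Δ*col-26*, against medians of -0.23 and -0.16 over all genes tested. Both mutants shared 71 of the members called higher, which is 71 of 78 and 71 of 84. The same overlap over all genes was not counted, so nothing particular to the members is read from it.

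Little followed from 0.05% upward. In Δ*rco-3* no member was called at 0.5% *vs.* 0.05%, in a comparison that called 0% of all genes higher and 0.0501% lower. In Δ*col-26* 2 members rose between these media and 0 fell, beside 0.0376% and 0.2% of all genes. At 2% *vs.* 0.05% glucose 2 members rose and 3 fell in Δ*rco-3*, beside 0.238% and 0.814% of all genes, and 3 rose and 1 fell in Δ*col-26*, beside 0.727% and 0.226%. The median member difference over this step was 0.24 for Δ*rco-3* *vs.* 0.08 for Δ*col-26*, against 1.75 in WT by selection. Over the whole range, 2% *vs.* no carbon, 97 members rose and 1 fell in Δ*rco-3* (8.73% and 11.2% of all genes), and 89 rose and 2 fell in Δ*col-26* (10.5% and 10.3%). Of the 78 members that rose at 0.05% in Δ*rco-3*, 75 were not called again between 0.05% and 2%. The same held for 81 of 84 in Δ*col-26*. Few of all genes tested were called over that step, by the shares given above, so these 2 counts are not read as a trait of the members.

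**Figure D2:**
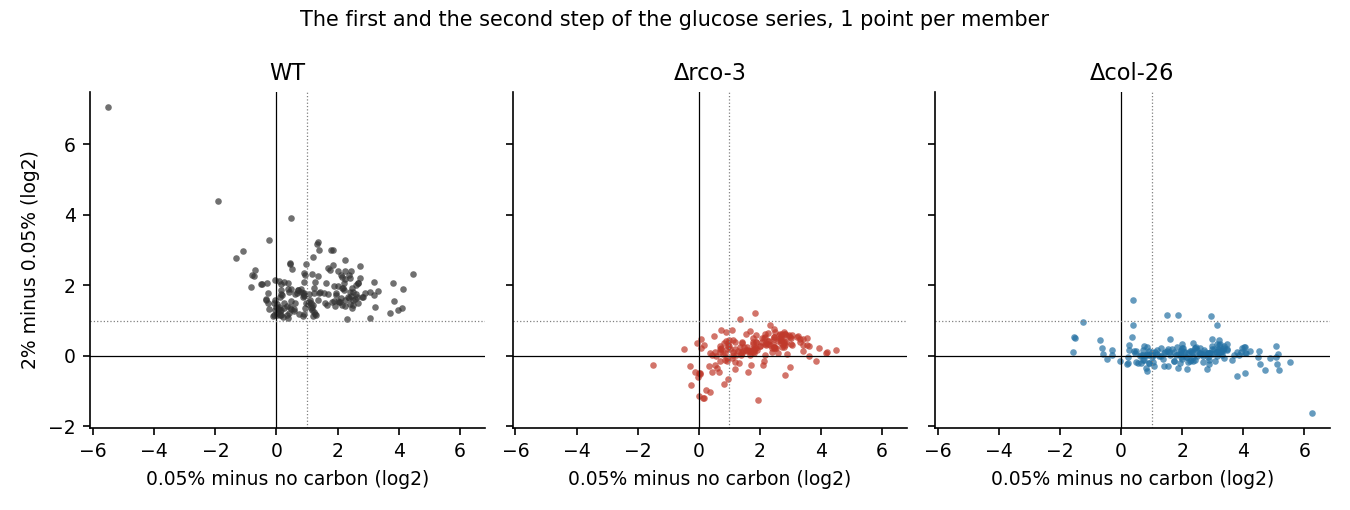
Log2 difference of group means from no carbon to 0.05% glucose (x axis) and from 0.05% to 2% glucose (y axis) for each of the 180 members in the 3 strains, with dotted lines at 1. All 180 WT points lie above 1 on the y axis because the rule put them there, while 2 of 180 in Δ*rco-3* and 4 of 180 in Δ*col-26* reach that line.

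Against WT the sign of the difference turned with the medium. Without carbon the median member difference to WT was 0.31 for Δ*rco-3* *vs.* -0.24 for Δ*col-26*, and at 0.05% glucose it was 0.80 and 0.74. At 0.5% it was -0.47 and -0.51, and at 2% it was -0.78 and -1.005. At 2% glucose both Δ*rco-3* libraries were below both WT libraries for 164 members and both Δ*col-26* libraries for 171, where this held for 26.6% and 40.3% of all genes tested. At 0.05% both mutant libraries were above both WT libraries for 157 and 153 members, where 74% and 63.8% of all genes tested were. The rule used the WT libraries, so nothing is read from these counts. The median gene tested was 0.50 higher in Δ*rco-3* and 0.27 higher in Δ*col-26* than in WT at 0.05%. With median-ratio scaling, which sets those medians to about 0, the member medians at 0.05% were 0.23 and 0.44 and those at 2% were -1.08 and -1.11.

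**Figure D3:**
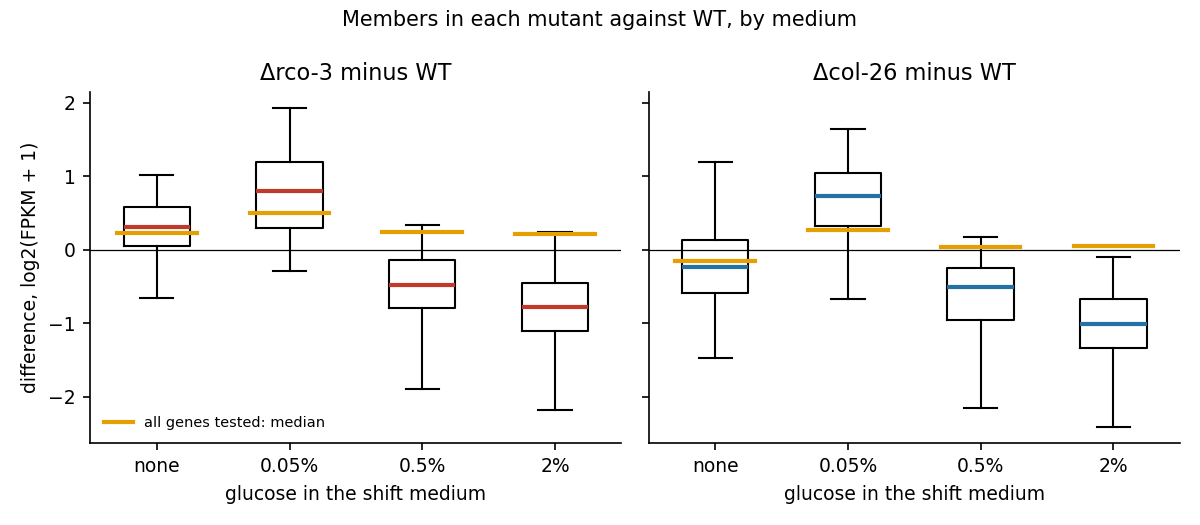
Difference of each mutant from WT in log2(FPKM + 1) over the 180 members, by medium (box: quartiles and median; whiskers: the central 90% of members), with the median of all genes tested in orange. The boxes lie above 0 at 0.05% glucose, with medians of 0.80 and 0.74, and below 0 at 2%, with medians of -0.78 and -1.005.

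Ribosome assembly makes the cell's protein synthesis machinery. Of 16 genes tested whose text named ribosome biogenesis, 6 were members: pescadillo (NCU00925, needed for large subunit maturation in yeast), the small subunit factor Sas10/Utp3 (NCU00301), RNA processing factor 1 (NCU00404), nucleolar complex protein 4 (NCU00501), the exosome subunit RRP40 (NCU00693) and the helicase rok-1 (NCU00919). Pescadillo stood at 0.680 and 1.00 FPKM in the WT libraries without carbon, 25.4 and 25.2 at 0.05%, 59.3 and 59.2 at 0.5% and 75.7 and 76.5 at 2%. In Δ*rco-3* its libraries read 1.25 and 1.60, 22.3 and 21.1, 28.8 and 31.4, and 32.7 and 31.2 FPKM over the same media, and the difference between 0.05% and 2% was 0.54. It rose by 3.23 ± 0.071 (SE) for Δ*rco-3* *vs.* 4.51 ± 0.071 for Δ*col-26* at the first step (limma, adjusted p = 6.69e-19 and 1.87e-21). In Δ*rco-3* this rise was not smaller with median-ratio scaling (3.27) or quantile normalization (3.52; limma, adjusted p = 1.907e-19 and 8.998e-20). NCU00925 was not called there only because its level no longer passed 20 FPKM.

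The helicase rok-1, on chromosome I from 6735642 to 6738473, had the fifth largest margin of all members, 2.54. WT libraries gave 0.200 and 0.210 FPKM without carbon, 2.37 and 1.90 at 0.05%, 16.7 and 17.8 at 0.5% and 28.9 and 27.9 at 2%. At 0.05% it was at 9.51 and 9.98 FPKM for Δ*rco-3* *vs.* 9.96 and 9.66 for Δ*col-26*, 4.56 and 4.59 times the WT mean. Neither mutant passed 20 FPKM in any medium, so no difference could be called. Over the list of 16, 3 genes rose and 0 fell at 0.05% *vs.* no carbon in Δ*rco-3*, 6 rose and 0 fell in Δ*col-26*, and 0 were called in either mutant at 2% *vs.* 0.05%. The list medians at the first step were 2.02 and 2.35, beside the all-gene medians of -0.23 and -0.16.

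Subunits of the polymerases that make ribosomal RNA and tRNA were also members. NCU00419, annotated as a polypeptide shared by RNA polymerases I and III, had libraries at 1.74 and 1.32, 7.39 and 8.67, 45.0 and 43.9, and 72.4 and 69.01 FPKM in WT with rising glucose. In Δ*rco-3* it was already at 30 and 25.5 FPKM at 0.05% and at 32.9 and 32.0 at 2%, and it rose by 2.54 ± 0.094 at the first step (adjusted p = 2.51e-15). Δ*col-26* stayed at 14.2 to 18.6 FPKM in glucose, below the level for a call. *un-18*, named here after its values were seen and known to encode the second-largest subunit of RNA polymerase I, went from 6.34 and 6.67 FPKM at 0.05% to 20.8 and 21.7 at 2% in WT, but only from 6.23 and 6.62 to 10.1 and 10.8 in Δ*rco-3*.

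None of the 20 cytosolic and 7 mitochondrial ribosomal protein genes tested was a member, and none of the 6 aminoacyl-tRNA synthetases was. These lists are partial: they hold genes with a matching symbol or with product text, at hand for 1060 loci only. In WT the cytosolic list differed by a median of 0.36 between 0.5% and 0.05% glucose. In the mutants 19 of 20 rose in Δ*rco-3* and 20 of 20 in Δ*col-26* at 0.05% *vs.* no carbon, and 0 were called at 2% *vs.* 0.05%. Translation factors gave 1 member of 5 tested, initiation factor 4B (NCU00457), at 68.8 and 65.1 FPKM in the WT 0.05% libraries and 177 and 178 at 2%. In Δ*col-26* it was at 101 and 97.8 FPKM at 0.05% and 103 and 108 at 2%. *dys-1*, deoxyhypusine synthase, which modifies another translation factor, was at 5.93 and 6.25 FPKM in WT at 0.05% and at 28.4 and 25 in Δ*rco-3*. NCU01115, a subunit of the tRNA splicing endonuclease, was 1 of 5 tRNA processing genes tested and reached 28.6 and 29.3 FPKM in WT at 2% but 10.4 and 9.80 for Δ*rco-3* *vs.* 7 and 6.88 for Δ*col-26*.

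Nucleotide and one-carbon synthesis contributed 5 of 13 genes tested, and all 5 rose at 0.05% *vs.* no carbon in both mutants. *for*, serine hydroxymethyltransferase, which feeds one-carbon units from serine, was among the 10 members with the highest WT level at 2%. Its WT libraries read 60 and 61.5 FPKM without carbon, 188 and 188 at 0.05%, 720.0 and 709.5 at 0.5%, and 789 and 801 at 2%. At 0.05% the mutants stood well above WT, with 436 and 457 FPKM for Δ*rco-3* *vs.* 515 and 525 for Δ*col-26*. At 2% they stood below it, with 488 and 499 and 433 and 458. The first step was 3.43 ± 0.0346 for Δ*rco-3* *vs.* 4.56 ± 0.0346 for Δ*col-26* (adjusted p = 1.88e-23 and 2.42e-25), and the second was 0.15 and -0.22.

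Methylenetetrahydrofolate dehydrogenase (NCU00963), which acts on the folate product of that enzyme, showed the same order with a wider gap at 2%. It was at 165 and 164 FPKM in WT, 55.2 and 55.7 for Δ*rco-3* *vs.* 48.6 and 50.1 for Δ*col-26*, that is 0.338 and 0.301 of the WT mean. At 0.05% the 3 strains were near each other, at 37.7 and 39.4, 43.8 and 47.6, and 50.2 and 51.8 FPKM. The purine synthesis gene NCU00177 reached 163 and 169 FPKM in WT at 2% and 84.4 and 82.1 and 59.3 and 60.9 in the mutants. *pyr-3*, the first enzymes of pyrimidine synthesis, was higher in the mutants at 0.05%, with 95.3 and 99.2 FPKM for Δ*rco-3* *vs.* 118 and 121 for Δ*col-26* against 40 and 39.1 in WT. Over the 13 genes, 11 rose at the first step in Δ*rco-3*, as did 12 in the other mutant, and 0 were called at the second in either mutant.

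Amino acid synthesis genes, taken by symbol family and product text, gave 7 members of 63 tested: *cpc-1*, *cys-11*, *aro-6*, *leu-2*, *arg-3*, *cys-16* and *met-6*. Over all 63, 44 rose and 1 fell in Δ*rco-3* and 45 rose and 1 fell in Δ*col-26* at 0.05% *vs.* no carbon, and the second step called 0 and 1. *cpc-1* encodes the bZIP activator of cross-pathway amino acid control, the counterpart of yeast Gcn4. It was at 286 and 263 FPKM in WT without carbon, 386 and 386 at 0.05%, 1249 and 1239.6 at 0.5% and 1429.8 and 1479 at 2%. In Δ*rco-3* it was at 818 and 829.9 FPKM at 0.05% and 931 and 932 at 2%. In Δ*col-26* the values were 639.6 and 665 and then 643 and 696. The first step was 1.91 ± 0.0385 and 1.62 ± 0.0385 (adjusted p = 1.91e-19 and 1.32e-18), while the second was 0.18 and 0.04.

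*cys-11*, ATP sulfurylase of sulfate assimilation, and *aro-6*, a DAHP synthase at the entry to aromatic amino acid synthesis, differed in how far the mutants got. *cys-11* reached 223 and 229.9 FPKM in WT at 2%, 112 and 113 for Δ*rco-3* *vs.* 78.0 and 84.3 for Δ*col-26*. *aro-6* reached 96.4 and 95.7 in WT, 83.2 and 80.5 for Δ*rco-3* *vs.* 88.1 and 86.0 for Δ*col-26*, and at 0.05% it was 2.46 and 2.94 times the WT mean. *leu-2*, isopropylmalate isomerase, exceeded WT in every glucose medium: its libraries were at 72.2 and 72.8 FPKM in WT at 2% but 146 and 141 for Δ*rco-3* *vs.* 126 and 129 for Δ*col-26*. At 0.05% it was 7.63 and 7.61 times the WT mean. *spe-1*, ornithine decarboxylase of polyamine synthesis, named after its values were seen, was at 41.9 and 41.4 FPKM in WT at 0.05% against 105 and 106 and 88.1 and 85.8 in the mutants. Of 14 glycolysis and pentose phosphate genes tested only *ppm-1* and *ppm-2* were members. *ppm-2* was at 582 and 589 FPKM in WT at 2%, 538 and 518 for Δ*rco-3* *vs.* 379 and 379.6 for Δ*col-26*.

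Several members with high levels or large margins have no name here. NCU08923 rose 5.07 ± 0.046 in Δ*col-26* at the first step (adjusted p = 9.41e-25), from 17.8 and 18.7 FPKM to 638 and 653, and was at 643 and 612 at 2%. In WT it was at 146 and 148 FPKM at 0.05% and 825 and 825 at 2%. NCU07420 went from 402 and 404 to 1151 and 1138 FPKM between those media in WT and from 653 and 625 to 678 and 659 in Δ*rco-3*. NCU03117 rose by 4.48 ± 0.057 for Δ*rco-3* *vs.* 5.14 ± 0.057 for Δ*col-26* at the first step (adjusted p = 2.95e-22 and 1.4e-23), yet ended at 136 and 132 and at 121 and 121 FPKM at 2% against 374 and 379 in WT. NCU02611 and NCU04765, with margins of 2.24 and 2.15, were 3.01 and 4.71 times the WT mean at 0.05% in Δ*rco-3* and 0.459 and 0.576 times at 2%.

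**Figure D4:**
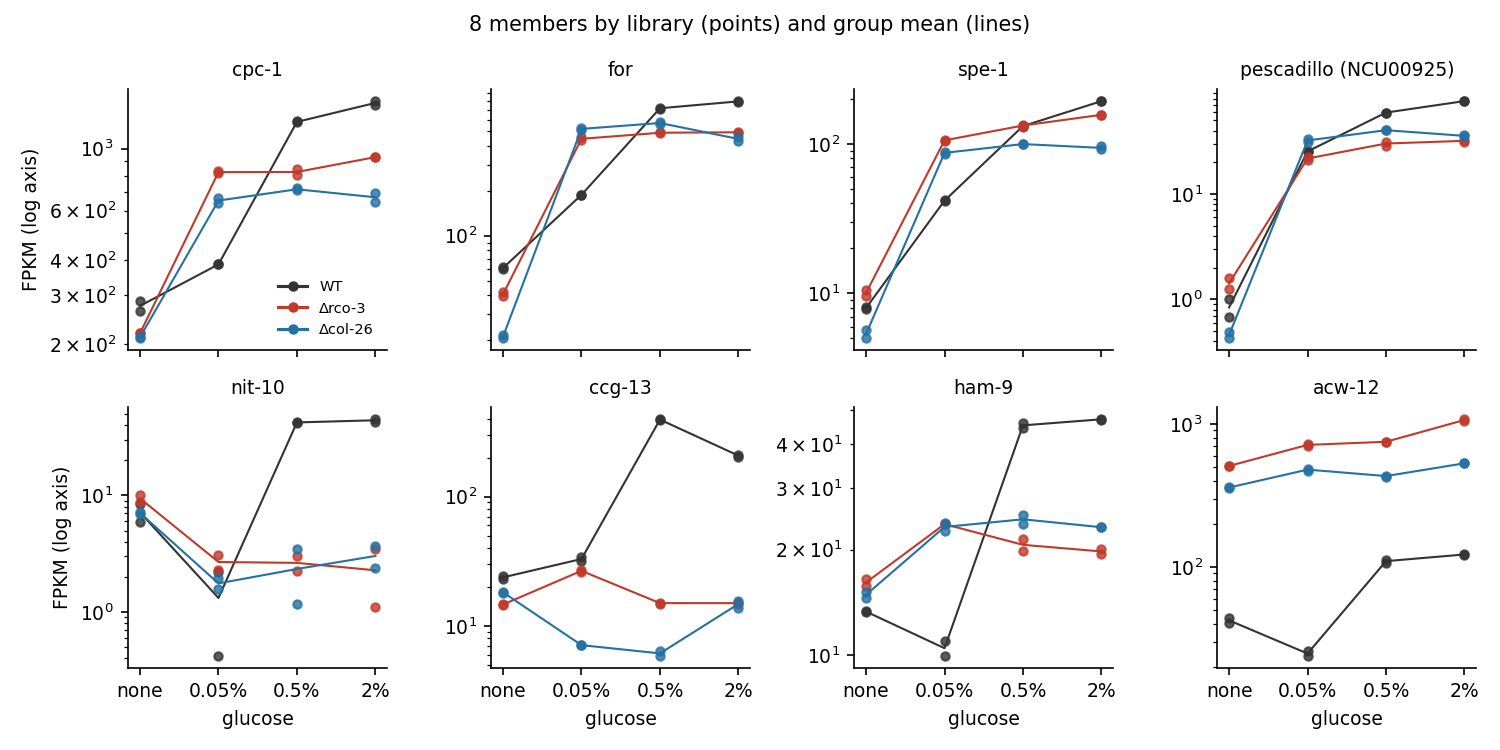
FPKM (log axis) of 8 members in each library (points) and as group means (lines) across the 4 media in WT (black), Δ*rco-3* (red) and Δ*col-26* (blue). For *cpc-1*, *for* and *spe-1* both mutants lie above WT at 0.05% and below it at 2%; *ccg-13* reaches at most 27.1 FPKM in a mutant library, and *acw-12* is at 356 FPKM or more in every mutant library.

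In 33 members the rise from no carbon to 2% was below 1 in both mutants, and 10 members were below 0.25 times the WT mean at 2% in both. A rise of at least 1 over that range was found for 12.5% (Δ*rco-3*) *vs.* 16.3% (Δ*col-26*) of all genes tested. A smaller rise or a fall was thus the common case. The rule chose members for high WT values at 2%, which favours low ratios to WT, so nothing is read from the count of 10. The 10, a set formed after the values were seen, are NCU00399, NCU03764, NCU06327, NCU06328, NCU12022, *asd-1*, *nit-10*, *rbg-40*, *ccg-13* and *ccg-14*. *nit-10*, the nitrate transporter, was at 8.42 and 5.89 FPKM in WT without carbon, 2.22 and 0.420 at 0.05%, 42.7 and 41.8 at 0.5% and 42.7 and 45.5 at 2%. Mutant libraries in glucose ranged from 1.11 to 3.65 FPKM, all below the WT libraries at 0.5% and 2%. No *nit-10* value in a mutant passed 20 FPKM, and the second step was -0.26 ± 0.347 for Δ*rco-3* *vs.* 0.53 ± 0.347 for Δ*col-26* (adjusted p = 0.574 and 0.248).

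Cell wall genes were among the 10. *ccg-13*, a clock-controlled cell wall protein gene, was at 387 and 399.7 FPKM in WT at 0.5% and 203 and 211 at 2%, and at 14.9 and 15.2 and 15.7 and 13.9 in the mutants at 2%. *ccg-14*, another clock-controlled gene, was at 126 and 131 FPKM in WT at 2% against 13.7 and 12.7 and 18.4 and 17.4. NCU00399, annotated as the cell wall protein PhiA, was at 196 and 199 FPKM in WT and at 45.8 and 47.6 and 30.8 and 29.8 in the mutants. NCU06328 and its neighbour NCU06327, on chromosome IV from 2898675 to 2907521, were both low: NCU06328 was at 26.1 and 27.9 FPKM in WT at 2% and at 1.03 to 1.34 in the 4 mutant libraries. *asd-1*, an ascus development gene, was at 22.8 and 24.9 FPKM in WT at 2% and at 1.29 to 1.90 in the mutants.

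Other surface genes kept a smaller difference or the opposite sign. Of 38 cell wall and surface genes tested 5 were members, and over the 38 the first step called 3 higher and 3 lower in Δ*rco-3* and 8 higher and 4 lower in Δ*col-26*. *gel-3*, a glucanosyltransferase that remodels wall glucan, was at 561 and 565 FPKM in WT at 2%, 352 and 353 for Δ*rco-3* *vs.* 280.2 and 290.3 for Δ*col-26*. The WSC domain gene NCU00309 was at 357 and 353 FPKM in WT at 2%, 80.2 and 74.96 for Δ*rco-3* *vs.* 135 and 134 for Δ*col-26*. *acw-12*, an anchored cell wall protein gene, went the other way in every medium. It was at 40.8 and 43.7, 25.7 and 23.8, 112 and 107, and 124 and 121 FPKM in WT with rising glucose. Δ*rco-3* gave 510.1 and 506, 726 and 701, 751 and 749, and 1087 and 1044 FPKM, and Δ*col-26* 356 and 362, 471 and 487, 435 and 428, and 531 and 530.2. In all 7 members were above WT at 2% in both mutants by group mean: *acw-12*, *leu-2*, NCU03257, NCU05752, NCU07649, NCU07736 and NCU15832. Taking each mutant alone, 14 members (Δ*rco-3*) *vs.* 8 (Δ*col-26*) were above WT there, beside 67.6% and 53.4% of all genes tested. Selection on high WT values at 2% favours such low counts.

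Hyphal fusion and its regulators gave 3 of 10 genes tested, with differences at the first step from -0.28 (*ham-7* in Δ*rco-3*) to 0.93 (*ham-5* in Δ*col-26*). *ham-7*, a cell surface protein that acts upstream of the wall integrity kinase pathway, was at 44.2 and 44.4 FPKM in WT at 0.05% and 139 and 138 at 2%. In Δ*rco-3* it was at 102 and 99.7 and then 83.5 and 81.4, and in Δ*col-26* at 76.1 and 77.9 and then 66.9 and 66.9. *ham-5*, a scaffold of the fusion kinase module, had the same order of strains in both media. *ham-9* was lower in both mutants than in WT at 2%, with 46.9 and 47.2 FPKM in WT, 23.2 and 23.1 in Δ*col-26* and 20.02 and 19.5 in Δ*rco-3*. None of the 10 genes was called at the first step in Δ*rco-3* and 1 rose in Δ*col-26*. *adv-1*, a transcription factor required for fusion and development and the only member among 21 transcription factor genes tested by product text, was at 108 and 107 FPKM in WT at 2% and at 33.4 to 36.0 in the mutants. *Asm-1*, an APSES family transcription factor named after its values were seen, was at 57.0 and 57.0 FPKM in WT at 2%, 46.9 and 47.05 in Δ*col-26* and 72.2 and 69.4 in the Δ*rco-3* libraries. None of 26 transporter genes tested by product text was a member, and none of 7 chaperones was. These lists are partial, since product text was at hand for 1060 loci only. The nitrate transporter gene *nit-10*, a member, is outside the transporter list.

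The few members that still responded above 0.05% in a mutant can be named. NCU06783 rose by 1.23 ± 0.028 for Δ*rco-3* *vs.* 1.15 ± 0.028 for Δ*col-26* at 2% *vs.* 0.05% (adjusted p = 1.02e-16 and 2.38e-16). Its libraries were at 205 and 199.6 FPKM at 0.05%, 238 and 241 at 0.5% and 470.4 and 479 at 2% in Δ*rco-3*. Among Δ*col-26* libraries the same media gave 107 and 107, 278 and 283, and 238 and 240.2, so the step fell between 0.05% and 0.5% there. NCU06785 (chromosome II, 1942231 to 1945028, with NCU06783 at 1947078 to 1950289) had the same order of values, with 141 and 139, 144 and 147, and 296 and 289.5 FPKM for Δ*rco-3*, then 80.7 and 81.0, 181 and 181, and 144 and 156 in Δ*col-26*. NCU08720 rose in Δ*col-26* from 24.2 and 26.2 to 59.6 and 56.4 FPKM, by 1.17 ± 0.064 (adjusted p = 2.58e-11), and in Δ*rco-3* it went from 29.3 and 30.8 to 51.6 and 60.2, by 0.87. *mig-2* was the third to rise in Δ*col-26*, by 1.12 ± 0.068 (adjusted p = 1.06e-10), a call that ended with a pseudocount of 5 (0.97).

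Members that fell over this step were few. In Δ*rco-3* NCU07736 fell by 1.24 (log2), from 61.6 and 64.8 to 26.9 and 25.6 FPKM, having stood at 7.95 and 7.43 in WT at 0.05%. NCU12021 fell by 1.21 and NCU03960 by 1.13 in the same mutant, and both calls ended with a pseudocount of 5 (-0.93 and -0.97). The call of NCU12021 also ended with either other scaling (-1.14 and -1.20) and without Δ*rco-3* 0.05% replicate 2 (-1.16). Under these settings its fall still exceeded 1, and the 20 FPKM level was the criterion it missed. In Δ*col-26* NCU02098 was called lower, but it overlaps NCU02097, was listed at 0 in both WT libraries at 0.05% and in both Δ*col-26* libraries without carbon, and was at 39.0 FPKM or more in the other WT libraries. Its values are therefore uncertain.

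Δ*rco-3* against Δ*col-26* called 2 members higher and 1 lower at 0.05% (0.664% and 0.739% of all genes tested), 1 and 1 at 0.5% (0.338% and 0.927%), and 2 and 0 at 2% (0.601% and 1.73%). Without carbon 10 were higher and 4 lower, beside 2.47% and 2.84% of all genes, although only 37 members exceeded 20 FPKM in either mutant there. That balance turned with the scaling: median-ratio scaling called 3 higher and 6 lower (0.58% and 4.25% of all genes), and quantile normalization 4 and 6. At 0.5% median-ratio scaling called 1 and 2, and at 2% it called 1 and 1 and quantile normalization 2 and 1. Counts under the scalings without a share of all genes are not read as a trait of the members. Median member differences between the mutants were 0.50 without carbon, 0.07 at 0.05%, 0.11 at 0.5% and 0.21 at 2%, against 0.36, 0.23, 0.20 and 0.16 over all genes. At 2% glucose the called members were *acw-12*, higher by 1.00 ± 0.038 (adjusted p = 2.65e-14), and the uncertain NCU02098. The *acw-12* difference lay at the threshold, and its call ended with a pseudocount of 5 (0.9992), with median-ratio scaling (0.81) and without Δ*rco-3* 2% replicate 1 (0.975). *ccg-13* was 1.77 ± 0.051 higher in Δ*rco-3* at 0.05% (adjusted p = 9.4e-16) and NCU08507 was 1.61 lower. NCU08507 stood at 68.3 and 68.6 FPKM in Δ*col-26*, 20.8 and 22.8 in Δ*rco-3* and 12.1 and 11.2 in WT in that medium.

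Without carbon, *adv-1* and *Asm-1* were called higher in Δ*rco-3* than in Δ*col-26*. *adv-1* was at 53.9 and 51.8 FPKM in the Δ*rco-3* libraries without carbon and 16.1 and 16.2 in Δ*col-26*, a difference of 1.65 ± 0.041 (adjusted p = 2.18e-17), and *Asm-1* was 1.35 ± 0.046 higher in Δ*rco-3* (adjusted p = 2.81e-15). With median-ratio scaling the call of *Asm-1* ended (0.98). NCU04292, NCU05970 and NCU08216 were the reverse. NCU05970 was at 56.5 and 55.3 FPKM in Δ*col-26* without carbon, 16.9 and 16.9 in Δ*rco-3* and 11.2 and 10.1 in WT, and NCU08216 at 55.5 and 53.6, 14.2 and 13.97, and 17.8 and 17.0.

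The responses themselves were compared as an interaction. The difference is the signed response of Δ*rco-3* minus that of Δ*col-26*, which is not a comparison of sizes where the responses have opposite signs. For 0.5% *vs.* 0.05% glucose it was called above 0 for 0 members and below 0 for 2 (0.0251% and 0.2% of all genes). For 2% *vs.* no carbon it was above 0 for 7 and below 0 for 13 (2.61% and 4.32%). The median difference of response was -0.32 over members and -0.18 over all genes. Among the 13 were *leu-2* (-1.77 ± 0.073, adjusted p = 1.1e-13), *adv-1* (-1.63 ± 0.058, adjusted p = 1.06e-14) and the WSC gene NCU00309 (-2.04 ± 0.053, adjusted p = 9.85e-17). Among the 7 were NCU05970, NCU08216 and NCU04292, whose starvation level in Δ*col-26* was high, and NCU06785. In 6 of the 20 the responses had opposite signs. *adv-1* moved by -0.58 in the first mutant and 1.05 in the second, and NCU05970 by 1.95 and -0.51.

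**Figure D5:**
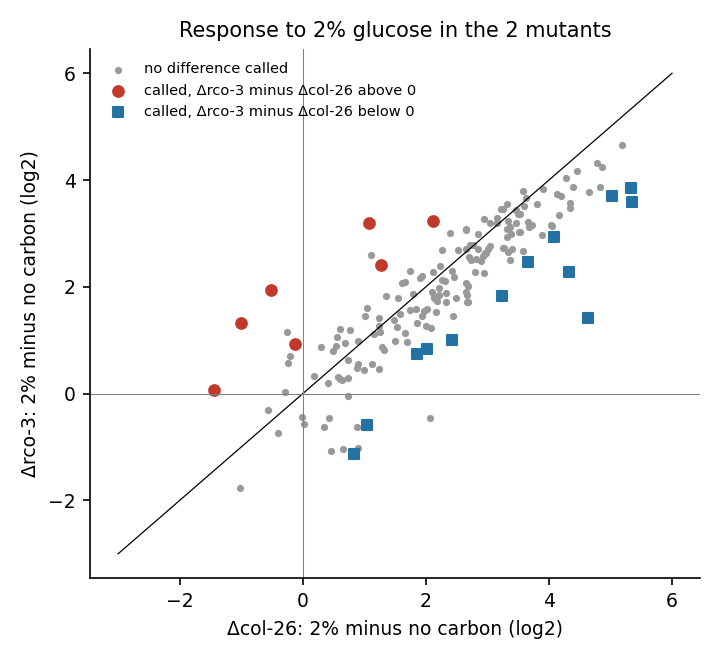
Log2 difference between 2% glucose and no carbon for each of the 180 members in Δ*col-26* (x axis) and Δ*rco-3* (y axis), with the line of equal response. Red circles mark the 7 members with a called difference (Δ*rco-3* minus Δ*col-26*) above 0 and blue squares the 13 with one below 0; 6 of the 20 have responses of opposite sign.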

How the data were processed

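RNA from mycelium of 3 strains in 4 media was sequenced from duplicate cultures (24 libraries). The authors deposited FPKM per locus for 9730 loci; their processing notes name Trimmomatic 0.36, HISAT2 2.1.0 and RSEM 1.2.8, whereas the study's methods name another aligner against predicted transcripts of *N. crassa* OR74A. FPKM is relative to each library's total, so a few abundant genes can shift all others. Values were used as deposited. Members and lists were chosen with earlier results of these data known. All 12 groups were fitted together on log2(FPKM + 1) with limma 3.58.1 in R 4.3.3 (eBayes with trend) over 7981 genes with a mean of at least 1 FPKM in a group, checked on simulated data. Differences are on the log2(FPKM + 1) scale, which understates changes of low genes; errors are SE unless 2 library values are given. Lists were to use reference product text; in its place product text at hand for 1060 loci and, added after the data were seen, symbol families were used. Named members were the 10 with the highest WT level at 2%, the 10 with the largest margin, the top 3 of each list, the 3 highest and 3 lowest for 2% *vs.* 0.05% in each mutant, up to 4 called in each direction between the mutants at 2%, and those at the edge of the rule; further ones are *spe-1*, *un-18*, *dys-1*, *leu-2*, *pyr-3*, *Asm-1*, *mig-2*, *ccg-14*, *asd-1*, *gh47-4*, *arg-3*, NCU00399, NCU03960, NCU04292, NCU04887, NCU05970, NCU06327 and NCU08216, added after their values were seen. The planned promoter motif search was not run, since sequences were not used here.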

Additional observations from a re-analysis of the deposited data

Results flagged for a closer look

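Responses to glucose that differed between the mutants by the interaction test are listed here with the log2 difference, Δ*rco-3* minus Δ*col-26*. For 0.5% *vs.* 0.05% glucose there were 2 such members, NCU06783 (-1.14) and NCU06785 (-1.10). For 2% *vs.* no carbon there were 20. The difference was below 0 for NCU02098 (-3.22, a value that depends on the pseudocount and is no fold, since its Δ*col-26* libraries without carbon are listed at 0), NCU00309 (-2.04), NCU03960 (-1.97), *leu-2* (-1.77), *adv-1* (-1.63), *gh47-4* (-1.41), NCU08507 (-1.40), NCU08923 (-1.33), *mig-2* (-1.14), NCU07547 (-1.49), NCU07649 (-1.19), NCU05835 (-1.19) and NCU10467 (-1.10). It was above 0 for NCU05970 (2.46), NCU08216 (2.33), NCU04292 (2.13), NCU04887 (1.51), NCU06785 (1.14), NCU07503 (1.12) and NCU02090 (1.05). For NCU03960, *adv-1*, NCU05970, NCU08216, NCU04887 and NCU02090 the mutants' responses had opposite signs, so the sign does not say which response was larger. NCU02090, NCU05835, NCU07503, NCU07547, NCU07649 and NCU10467 were named after their values were seen. Groups of 2 libraries were too small to look for single outlying libraries.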

How the results depend on the processing

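Of 5662 values of 378 named differences under the alternatives, 32 lost and 55 gained a call. Among differences called in the main fit, 0 reversed. Changes of sign in differences not called were not counted, so this says nothing of their stability. The counts of members called that moved by over 1.5 times are given here. Where no share of all genes stands beside a count, nothing particular to the members is read from it. Without a minimum FPKM for a call, 131 members were called for Δ*rco-3* *vs.* 143 for Δ*col-26* at 0.05% *vs.* no carbon, 143 in Δ*col-26* at 2% *vs.* no carbon, 34 between the mutants without carbon and 5 at 0.05%. In the same order, the shares of all genes tested with differences of at least 1 by size alone were as follows. Higher were 12.1%, 16.2%, 16.3%, 5.075% and 1.87%, and lower were 16.6%, 20.4%, 18.2%, 3.63% and 1.10%. With a pseudocount of 0.1 the interaction at 2% *vs.* no carbon called 33; with 5, 2% *vs.* 0.05% in Δ*rco-3* called 3 and the mutants at 2% differed in 1. Median-ratio scaling left 9 between the mutants without carbon (3 higher and 6 lower in Δ*rco-3*, against 10 and 4; quantile normalization gave 4 and 6), and quantile normalization 3 at 2% *vs.* 0.05% in Δ*rco-3*. Leaving out the 45 overlapping members, an alternative chosen after seeing the data, gave 3 and 2 at 2% *vs.* 0.05%, and 8, 1 and 0 between the mutants without carbon, at 0.5% and at 2%.

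The number of members was 66 with differences of at least 1.5, 292 with 0.8 and 89 above 50 FPKM. Inside Δ*rco-3* 1 member met the rule with a pseudocount of 0.1, and inside Δ*col-26* 1 with a pseudocount of 5.

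Medians against WT, given for no carbon, 0.05%, 0.5% and 2%, kept their sign. With median-ratio scaling they were 0.13, 0.23, -0.76 and -1.08 for Δ*rco-3*, and -0.12, 0.44, -0.54 and -1.11 for Δ*col-26*. Quantile normalization gave 0.057, 0.35, -0.69 and -1.02, and -0.16, 0.43, -0.60 and -1.11. A pseudocount of 5 gave 0.16, 0.68, -0.39 and -0.71, and -0.10, 0.57, -0.44 and -0.89. With 0.1 the first 2 were 0.42 and 0.85 for Δ*rco-3*, and the first 3 were -0.29, 0.79 and -0.53 for Δ*col-26*. Leaving out each replicate gave 0.26 to 0.34, 0.80 to 0.81, -0.49 to -0.45 and -0.79 to -0.76 for Δ*rco-3*, and -0.24 to -0.22, 0.72 to 0.74, -0.53 to -0.49 and -1.02 to -0.99 for Δ*col-26*.

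Replicate numbers did not pair the libraries: over 66 pairs of groups the correlation of their deviations ran from -0.205 to 0.125. Of these, 1 was above 0.1 and 4 were below -0.1. The lowest, -0.205 and -0.168, joined WT without carbon with Δ*rco-3* at 0.05% and at 2%. With the replicate number as a block, 78 members were called at the first step for Δ*rco-3* *vs.* 86 for Δ*col-26*, and no count of members moved. Leaving out each replicate, these counts were 76 to 79 and 85 to 86. FPKM without counts and 2 libraries per group limit what can be said of members below 20 FPKM.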

Other observations

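The members lay on all 7 chromosomes. Of the 180, 8 (4.44%) were next to another member on the chromosome, while 3.96% of the genes tested were next to a member. The neighbouring pairs were NCU06327 with NCU06328, *gel-3* with *ccg-13*, NCU12021 with NCU12022, which overlap, and NCU05835 with *gh47-4*. The median gene length was 2480 bases for members and 2342 for the genes tested. These are descriptions without a test.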
